A study of Mus musculus with 4 samples.

Results

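The genes described here carry glucose through glycolysis to lactate: glucose and lactate transporters, the enzymes of each glycolytic step, lactate dehydrogenases and the gate to the mitochondrion formed by pyruvate dehydrogenase and its kinases. All 33 symbols on the list were found among the 22609 genes of the table, and 31 had enough reads to be tested. The reads come from polyadenylated RNA of whole mouse testes on postnatal day 3, on a mainly C57BL/6J background, in 2 libraries with a wild-type TR alpha 1 (thyroid hormone receptor alpha 1, made from Thra) and 2 libraries with a dominant-negative one, called mutant here. A dominant-negative receptor is a form that hinders the normal one. The animals came from matings of AmhCre mice, in which the promoter of the anti-Mullerian hormone gene drives Cre recombinase in Sertoli cells, with heterozygous carriers of TRαAMI, so the switch is meant for Sertoli cells while the RNA is from every cell of the organ. The labels do not say whether the wild-type animals carried AmhCre or an unswitched allele, or whether a library is 1 animal or a pool. The p-values below therefore reflect the spread among 4 libraries, which may be technical.

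Sertoli cells, the nurse cells of the seminiferous tubule, are known for taking up glucose, breaking it down to lactate and exporting that lactate, which older germ cells use as fuel. Glucose enters through the GLUT proteins (Slc2a genes) and lactate leaves through the monocarboxylate transporters (Slc16a genes), which need the glycoprotein basigin to reach the membrane. Lactate dehydrogenase is a tetramer of A and B subunits, and the A form favours making lactate while the B form favours using it. Thyroid hormone is known to act on the proliferation and maturation of Sertoli cells.

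Gene counts ran from 10230512 to 15636832 per library, and the member genes together made up 0.350% to 0.383% of them. Of the markers fixed for each cell type, Sertoli markers summed to 8981 and 9833 CPM (counts scaled to a common library size) in wild type and to 7976 and 8017 in mutant testes, with 3 of 15 lower and none higher by the test used below. Germ cell markers summed to 1005 and 698 CPM in wild type and 411 and 360 in mutant testes, with 11 of 15 lower and none higher. Leydig cell markers summed to 1302 and 1445 CPM in wild type and 1555 and 1526 in mutant testes, with none of 7 passing. Macrophage markers summed to 246 and 319 CPM in wild type and to 404 and 565 in mutant testes, with 3 of 10 higher. For skeletal muscle markers the sums were 28.8 and 27.8 CPM in wild type, 2801 CPM in mutant replicate 1 and 747 CPM in mutant replicate 2, with 12 of 15 higher. Myoid, endothelial and Leydig lists had no member past the threshold, with myoid sums of 1572 to 1623 CPM in wild type and 1505 to 1796 in mutant testes and endothelial sums of 225 to 233 and 257 to 301. Erythroid markers summed to 11.1 and 26.0 CPM in wild type and 21.0 and 23.6 in mutant testes, with Hba-a1 and Hba-a2 at 0 counts in all libraries. Adipocyte markers summed to 107 and 106 CPM in wild type against 37.5 and 43.4 CPM in mutant testes, with 5 of the 7 tested lower. In such bulk RNA, fewer cells of a type and less RNA per cell cannot be told apart.

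Several of the best known glycolysis genes can hardly be read from this table. The mouse genome holds many processed copies of these genes, and the authors' table keeps reads with several alignments apart from the gene counts. Gapdh, the gene of glyceraldehyde-3-phosphate dehydrogenase (chromosome 6, 125111871 to 125116485, minus strand, mm9), had 16 and 18 counts in wild type and 15 and 22 in mutant testes. Eno1, the ubiquitous enolase gene (chromosome 4, 149610830 to 149622988, plus strand), had 5 and 8 counts in wild type and 4 and 3 in mutant testes. When the reference transcript of each gene was cut into every possible window of 100 bases, the length of the reads, 100.0% of the windows inside the coding sequence of Gapdh, Eno1, Pgk1 and Pgam1 had a copy elsewhere in the genome with at most 2 mismatches. The 2 Gapdh windows and the Eno1 window printed next show what this means: each lies in the coding sequence and within 1 exon. Among such windows of Gapdh, the first has the most exact copies and the second the fewest copies with at most 2 mismatches.
Gapdh, exon 4, chr6:125112916-125113015, minus strand, NCBIM37: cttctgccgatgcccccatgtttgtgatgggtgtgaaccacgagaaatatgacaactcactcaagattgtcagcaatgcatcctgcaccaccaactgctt
Gapdh, exon 3, chr6:125113319-125113418, minus strand, NCBIM37: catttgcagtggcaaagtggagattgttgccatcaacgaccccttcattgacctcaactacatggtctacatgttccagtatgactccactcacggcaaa
Eno1, exon 7, chr4:149619224-149619323, plus strand, NCBIM37: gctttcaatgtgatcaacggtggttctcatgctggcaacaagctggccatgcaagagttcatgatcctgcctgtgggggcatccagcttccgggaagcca
The first Gapdh window was found letter for letter at 37 other places in the genome and at 76 with up to 2 mismatches. The second Gapdh window was found exactly at 10 other places and at 29 with up to 2 mismatches. The Eno1 window had 3 exact copies and 4 within 2 mismatches. Capitals mark nothing here, since no base of these windows sets the gene apart from its closest copy.

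Over whole transcripts, untranslated ends included, 94.6% of windows were copied in Pgam1 (phosphoglycerate mutase), 90.2% in Pgk1 (phosphoglycerate kinase), 87.4% in Gapdh and 85.1% in Eno1. Such copies, with at most 2 mismatches, covered 72.3% of windows in Gpi1 (glucose phosphate isomerase) and 62.4% in Pkm2 (pyruvate kinase of muscle type). They covered 58.3% in Ldhb, 55.5% in Pdhb, 40.7% in Ldha and 38.5% in Tpi1 (triose phosphate isomerase). Exact copies alone covered 9.39% in Gpi1, 10.84% in Pkm2, 9.38% in Ldhb and 10.75% in Pdhb. The exact share was 1.32% in Ldha and 7.69% in Tpi1, against 87.07% in Pgam1, 89.8% in Pgk1, 85.09% in Gapdh and 59.02% in Eno1. The other 23 members had copies in under 10% of their windows, and 18 of those had none, among them every transporter. For the copied genes the values are counts of the reads the authors could place, and how many reads were lost to copies was not tested. Levels of these genes are uncertain for that reason, and transcribed copies cannot be told apart from the genes.

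**Figure D1:**
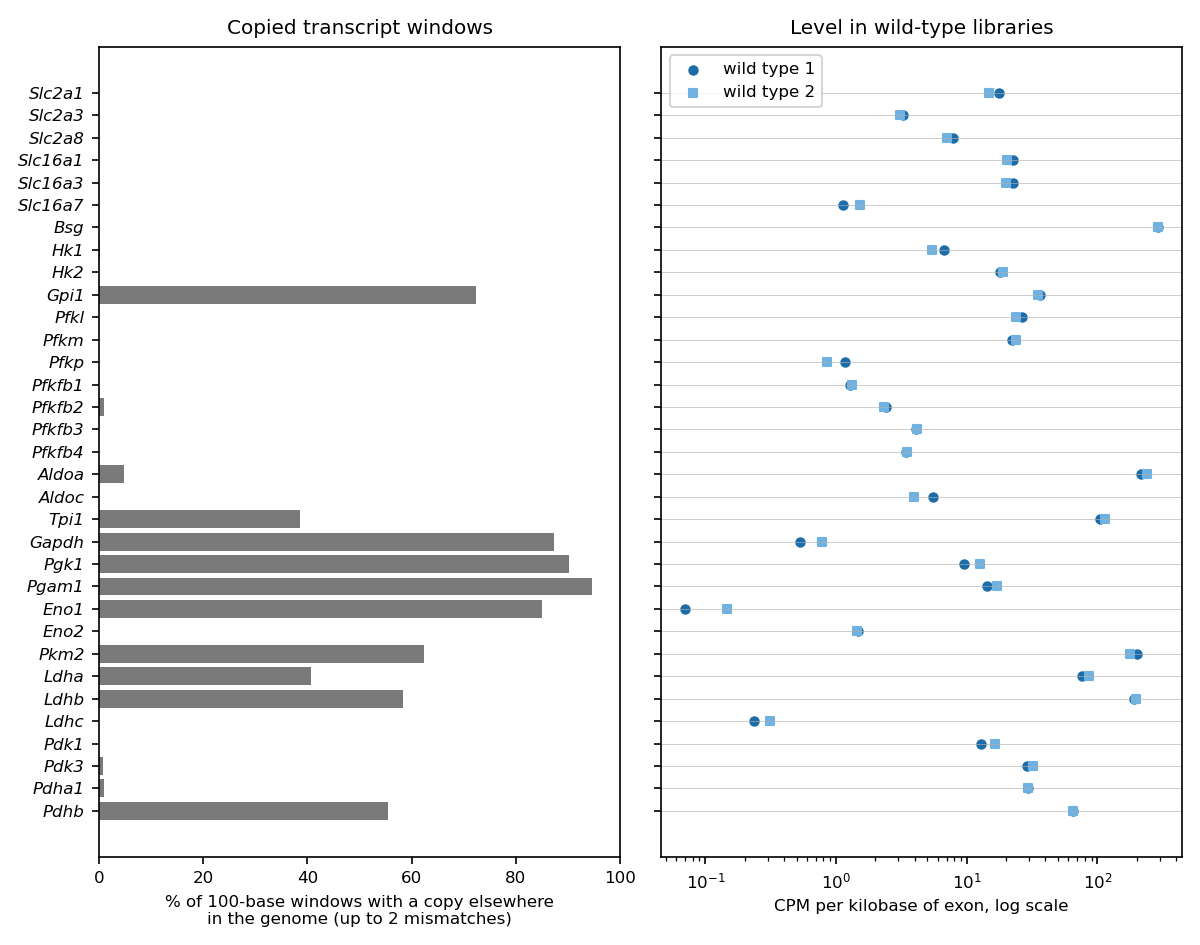
Left, the share of 100-base transcript windows of each member with a near copy elsewhere in the mm9 genome. Right, the level of the same genes in the 2 wild-type libraries, in CPM per kilobase of exon on a log axis. Gapdh and Eno1, with 87.4% and 85.1% of windows copied, sit at the low end of the levels, while Bsg and Aldoa sit at the high end.

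Levels of different genes were compared per kilobase of annotated exon (CPM per kb, mean ± SD of the 2 wild-type libraries), a scale on which genes with copied windows may be read too low. On it Bsg, the basigin gene, stood highest at 292 ± 0.289 CPM per kb, followed by Aldoa, the aldolase of muscle and most other tissues, at 228 ± 18.5. Ldhb was at 194 ± 6.36 and Pkm2 at 188 ± 17.2, a difference within their spread. Tpi1 followed at 109 ± 6.48 and Ldha at 81.3 ± 7.04. The order turned when the wild-type mean was divided by the windows without a copy, a scale chosen after seeing the data. Ldhb then stood highest at 605 CPM per kilobase of such window starts. Pkm2 followed at 563, Aldoa at 455, Bsg and Pgam1 at 309 each and Gpi1 at 299. Pgk1 stood at 147 on that scale, Gapdh at 8.93 and Eno1 at 2.02. Why Gapdh and Eno1 stayed low there was not tested. The order of these genes therefore depends on the scale. Counts may include reads from windows whose copies are all inexact, and genes with many such windows may then be read too high. Ldhb, with 58.3% of windows copied but 9.38% copied exactly, is among them. How many such reads were counted was not tested. The transporters, hexokinases and phosphofructokinases compared next have almost no copied windows, but their values depend on the scale too. Windows were cut from 1 transcript per gene, which can be shorter than its annotated exons together. Per kilobase of window starts without a copy, Hk1 stood at 14.27 and Hk2 at 20.35, closer together than per kilobase of exon. Slc16a3 stood above Slc16a1 on that scale. The values that follow are per kilobase of exon. Ldhc, the lactate dehydrogenase of later spermatocytes and sperm, stood at 0.274 ± 0.0513 CPM per kb, with 5 and 5 counts in wild type and 12 and 5 in mutant testes, and was too low to be tested. Of the lactate transporters, Slc16a1 at 21.5 ± 1.66 and Slc16a3 at 21.3 ± 2.01 did not differ beyond their spread in wild type, and Slc16a7 was at 1.33 ± 0.264. Of the glucose transporters, Slc2a1 (GLUT1) stood at 16.3 ± 2.09, Slc2a8 (GLUT8) at 7.39 ± 0.546 and Slc2a3 (GLUT3) at 3.17 ± 0.0865. Among phosphofructokinases, the enzymes of the committed step, Pfkl at 25.1 ± 2.07 and Pfkm at 22.9 ± 0.945 lay together and Pfkp lay at 1.02 ± 0.226. Hexokinase 2 (Hk2, 18.5 ± 0.766) exceeded hexokinase 1 (Hk1, 6.06 ± 0.910).

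**Figure D2:**
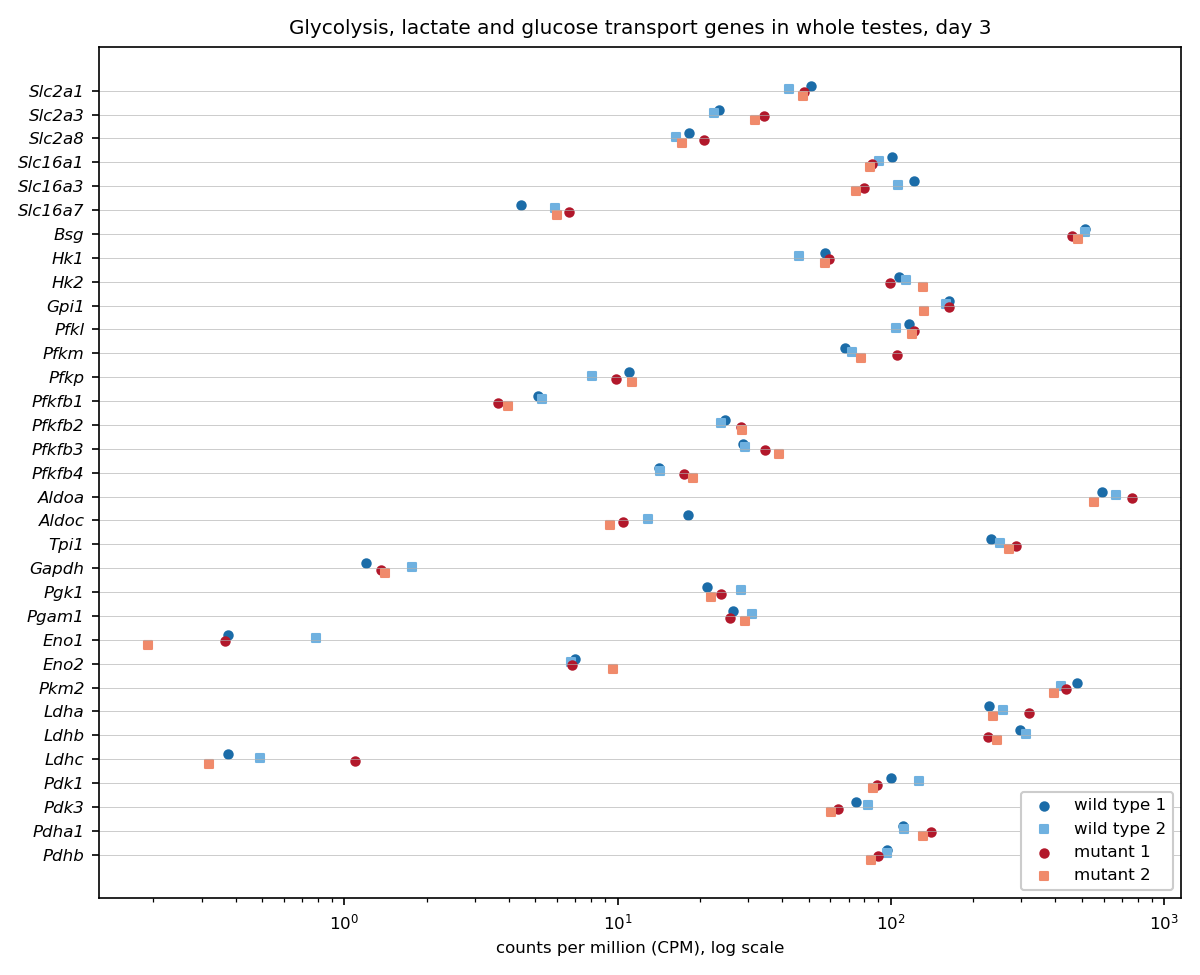
Level of each of the 33 members in the 4 libraries, in CPM on a log axis, with 1 point per library. For most genes the points of both groups lie close together, the mutant points of Slc16a3 and Ldhb lie below both wild-type points, and those of Slc2a3 lie above.

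Against this background, most members differed little between genotypes. By the quasi-likelihood test of edgeR, with p-values adjusted over all 14788 tested genes by the Benjamini-Hochberg method and a threshold of 0.05, 2 of the 31 tested members fell in mutant testes, none rose and 29 did not pass. Over all tested genes the test called 5.67%, of which 2.52% were lower and 3.15% higher, so the 6.45% of members called lower rests on 2 genes. The genes were Slc16a3, a lactate transporter, and Ldhb, a lactate dehydrogenase subunit. DESeq2 called the same 2 genes and none higher. At an unadjusted p below 0.05, 5 members were higher and 5 lower, against 12.9% and 12.6% of all tested genes. The median log2 fold change (mutant minus wild type) of the members was 0.06, that of all tested genes -0.01, and the median size of a change was 0.19 in both sets. In 19 of the 31 members the 2 groups did not overlap, 10 with both mutant libraries above and 9 with both below. The shares over all tested genes were 28.3% and 29.0%.

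Slc16a3 encodes MCT4, the transporter known for exporting lactate from strongly glycolytic cells. It lies on chromosome 11 (120809794 to 120822182, plus strand, mm9) and 15.6% of its exon bases are shared with exons of the neighbouring Csnk1d, whose reads there may not be separable from its own. Wild-type replicates 1 and 2 gave 121 and 106 CPM, and mutant replicates 1 and 2 gave 79.4 and 74.4 CPM. Both mutant libraries were below both wild-type libraries. The fall was 1.48-fold, a log2 fold change of -0.56 ± 0.10 (standard error, SE), with an adjusted p of 0.0226 by edgeR. The call held at -0.66, -0.61 and -0.52 without wild-type replicate 2, mutant replicate 1 and mutant replicate 2, and was lost at -0.47 without wild-type replicate 1 (adjusted p = 0.110). Sertoli and germ cell marker sums were lower in the same libraries. The median log2 fold change was -0.10 over the Sertoli markers and -1.27 over the germ cell markers. The part of these cells in the Slc16a3 value was not tested.

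The other lactate carriers gave no call. Slc16a1, which encodes MCT1, a transporter that works in either direction, was at 101 and 90.2 CPM in wild type and 85.2 and 84.0 CPM in mutant testes, below in both, with a log2 fold change of -0.17 ± 0.09 (adjusted p = 0.281). Slc16a7, which encodes MCT2, a high-affinity importer, was at 4.43 to 5.88 CPM in wild type and 6.00 to 6.64 in mutant testes (0.30 ± 0.25, adjusted p = 0.492). Bsg, the partner that carries MCT1 and MCT4 to the membrane, was at 511 CPM in both wild-type libraries against 458 and 484 CPM in mutant testes (-0.12 ± 0.08, adjusted p = 0.422). Within a library, Slc16a3 made up 48.8% and 47.7% of the length-scaled counts of the 3 Slc16a members in wild type and 41.6% and 40.5% in mutant testes. Such a share does not depend on how libraries are scaled to each other, and it was 7.16 percentage points lower in the mutant mean. With 2 libraries against 2, an exact two-sided permutation test cannot go below p = 0.333, which was its value here.

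Ldhb (chromosome 6, 142438769 to 142456477, minus strand, mm9), encodes the heart-type subunit. Its level was 297 and 311 CPM in wild type, against 227 CPM in mutant replicate 1 and 244 CPM in mutant replicate 2. The groups did not overlap. Its fall was 1.29-fold, with a log2 fold change of -0.37 ± 0.08 and an adjusted p of 0.0461 by edgeR. That call stood near the threshold: it was lost on leaving out any of the 4 libraries, where the log2 fold change stayed between -0.42 and -0.32 and the adjusted p ran from 0.0588 to 0.223.

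Ldha, the muscle-type subunit, had 228 and 257 CPM in wild type, 320 CPM in mutant replicate 1 and 236 CPM in mutant replicate 2. Only mutant replicate 1 stood above the wild-type range, and the log2 fold change of 0.19 ± 0.14 was not called (adjusted p = 0.426). Ldhb made up 71.2% and 69.7% of the length-scaled Ldha and Ldhb counts in wild type and 57.4% and 66.3% in mutant replicates 1 and 2. The share was lower in both mutant libraries, by 8.57 percentage points in the means and by 4.13 points without mutant replicate 1 (exact permutation p = 0.333). Mutant replicate 1 is the library with the most skeletal muscle transcripts, and Ldha is strongly expressed in muscle. What part this has in the share was not tested. Both subunit genes are among those with copied windows.

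**Figure D3:**
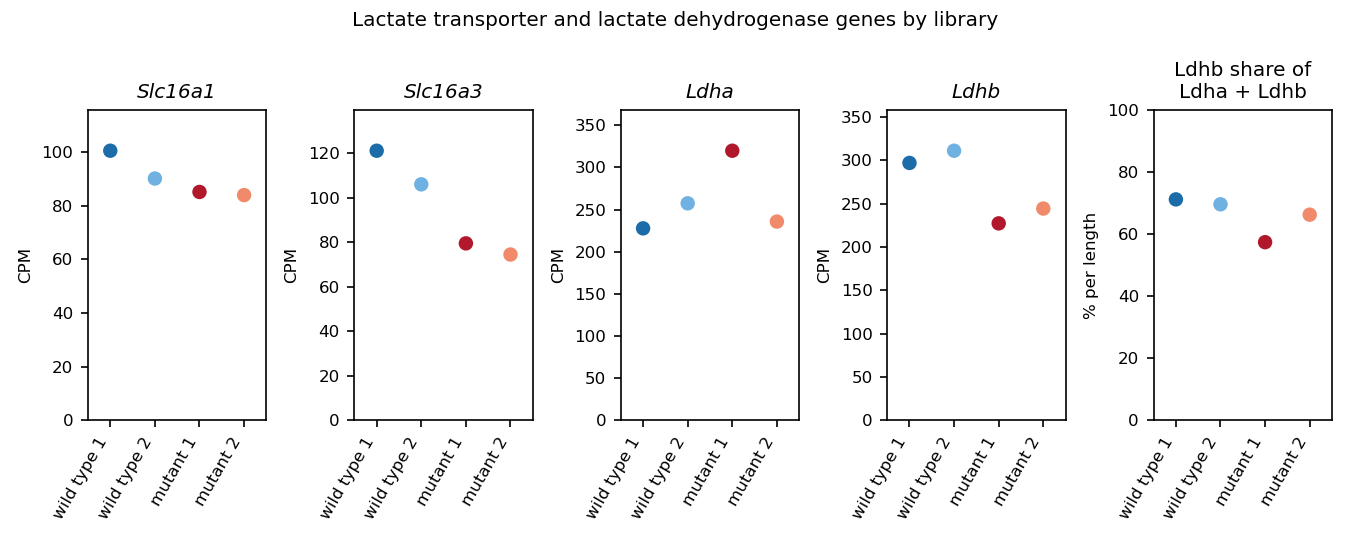
CPM of Slc16a1, Slc16a3, Ldha and Ldhb in each library and, at right, Ldhb as a percentage of the length-scaled counts of Ldha and Ldhb, with 1 point per library and axes that start at 0. Slc16a3 and Ldhb are lower in both mutant libraries, while Ldha is high in mutant replicate 1 alone at 320 CPM.

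The promoters of the 2 genes called lower are printed to show what lies before their start sites, each as the 250 bases before the RefSeq start (GRCm38.p6, a later build than that of the table). Capitals mark ACGTG, a form of the core of the hypoxia response element, and AGGTCA, the half-site of thyroid hormone and other nuclear receptors. Both were searched on both strands, and the form GCGTG of the core was not searched.
Slc16a3, chr11:120948817-120949066, plus strand: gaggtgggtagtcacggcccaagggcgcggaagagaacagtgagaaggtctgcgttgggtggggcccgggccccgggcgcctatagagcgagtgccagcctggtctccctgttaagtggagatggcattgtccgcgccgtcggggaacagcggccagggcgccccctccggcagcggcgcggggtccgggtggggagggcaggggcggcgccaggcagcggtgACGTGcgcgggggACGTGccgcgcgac
Ldhb, chr6:142507958-142508207, minus strand: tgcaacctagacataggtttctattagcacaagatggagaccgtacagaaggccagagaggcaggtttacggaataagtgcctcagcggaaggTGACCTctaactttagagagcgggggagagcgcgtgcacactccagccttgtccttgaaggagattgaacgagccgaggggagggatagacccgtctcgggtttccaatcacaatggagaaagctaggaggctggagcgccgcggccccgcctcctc
The Slc16a3 promoter held ACGTG 2 times, beginning 27 and 14 bases before the start, and no AGGTCA. The Ldhb promoter held AGGTCA once, read as TGACCT from 157 bases before the start, and no ACGTG. The table held 49 promoters of 300 bases (250 before and 50 after a start) for 30 of the members, with none for Bsg, Slc2a3 and Slc16a7. ACGTG occurred in 42.9% of these against 19.6% of all 32851 promoters of that length, a figure that includes CACGTG, the E-box, found in 10.2% against 7.15%. AGGTCA occurred in 16.3% of both. The repeat of that half-site with a spacer of 4 bases occurred in none of the members' promoters and in 5 of all. These matches are letters in a window and were not tested as sites. Some of the 49 promoters overlap within a gene, as in Aldoa, and the larger set was not matched to them for base content.

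Among the 3 glucose transporters of the list, Slc2a3 had the largest log2 fold change. It encodes the high-affinity transporter known from neurons and embryonic cells (chromosome 6, 122677827 to 122751658, minus strand). Wild-type libraries held it at 23.4 and 22.5 CPM and mutant libraries at 34.4 and 31.9 CPM, with both mutant libraries above both wild-type libraries. The difference of 1.44-fold (log2 fold change 0.52 ± 0.13) just missed the threshold (adjusted p = 0.0523). It passed with a minimum count of 50 (adjusted p = 0.0456) and with the legacy form of the test (adjusted p = 0.0498). It did not pass by DESeq2 (adjusted p = 0.0853) or limma voom (adjusted p = 0.0583). Nor did it pass under the other scalings, with no filter or with the replicate block. Slc2a1, the main basal glucose transporter, was at 50.8 and 42.3 CPM in wild type and 47.9 and 47.7 CPM in mutant testes, inside the wild-type range (0.03 ± 0.12, adjusted p = 0.892). Slc2a8, an intracellular transporter abundant in testis, was at 16.4 to 18.2 CPM in wild type and 17.2 to 20.7 CPM in mutant testes (adjusted p = 0.687). Slc2a3 made up 15.4% and 17.3% of the length-scaled Slc2a1 and Slc2a3 counts in wild type and 22.1% and 20.9% in mutant testes.

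The hexokinases, which trap glucose as its phosphate, did not pass. Hk1 was at 57.2 and 46.2 CPM in wild type and 59.2 and 57.4 CPM in mutant testes. Hk2, the inducible form, was at 107 and 113 CPM in wild type and 99.4 and 130.5 CPM in mutant testes, on both sides of the wild-type values. Their log2 fold changes were 0.17 ± 0.12 and 0.06 ± 0.13. Gpi1, the next enzyme, was at 159 to 163 CPM in wild type and 132 to 162 CPM in mutant testes.

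At the phosphofructokinase step no gene was called with all 4 libraries. The muscle-type gene Pfkm (chromosome 15, 97923020 to 97962878, plus strand) stood at 68.0 and 72.0 CPM in wild type, at 105 CPM in mutant replicate 1 and at 77.5 CPM in mutant replicate 2. Its log2 fold change of 0.38 ± 0.14 was not called (adjusted p = 0.144), and it was 0.59 without mutant replicate 2, where it passed (adjusted p = 0.00663), and 0.15 without mutant replicate 1 (adjusted p = 0.676). Pfkl, the liver-type gene, was at 117 and 104 CPM in wild type and 121 and 119 CPM in mutant testes (0.12 ± 0.09), and Pfkp, the platelet-type gene, was at 11.0 and 8.04 CPM in wild type and 9.83 and 11.2 CPM in mutant testes.

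The Pfkfb genes encode enzymes that make or remove fructose 2,6-bisphosphate, the activator of phosphofructokinase. Pfkfb3, the form with the strongest making activity, was at 28.8 and 29.3 CPM in wild type and 34.6 and 38.8 CPM in mutant testes (0.34 ± 0.12, adjusted p = 0.132). Pfkfb4, a form first described in testis, was at 14.2 and 14.3 CPM in wild type and 17.5 and 18.9 CPM in mutant testes (0.36 ± 0.16, adjusted p = 0.202). In these 2 genes and in Pfkfb2, at 23.9 to 24.8 against 28.2 to 28.5 CPM, both mutant libraries lay above both wild-type libraries. Pfkfb1 lay below, at 5.11 and 5.29 against 3.64 and 3.96 CPM. None of the 4 genes was called.

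In lower glycolysis no gene was called. Aldoa had 591 and 663 CPM in wild type, 763 CPM in mutant replicate 1 and 553 CPM in mutant replicate 2, so that the mutant values lay on either side of the wild-type values (0.07 ± 0.15, adjusted p = 0.816). Aldoc, the brain-type aldolase, was at 18.0 and 12.9 CPM in wild type and 10.5 and 9.38 CPM in mutant testes, below in both. Its log2 fold change of -0.66 ± 0.21 was the largest in size of the 31 tested members and was not called (adjusted p = 0.104). Tpi1 was at 231 and 252 CPM in wild type and 287 and 270 CPM in mutant testes (0.21 ± 0.09, adjusted p = 0.184). Pkm2 was at 479 and 421 CPM in wild type and 438 and 396 CPM in mutant testes (-0.11 ± 0.10). Eno2, the neuronal enolase, was at 6.76 to 6.98 CPM in wild type and 6.82 to 9.58 CPM in mutant testes. Pgk1 had 283 and 289 counts (21.3 and 28.3 CPM) in wild type and 262 and 344 counts in mutant testes, where mutant replicate 1 was at 23.8 CPM and both lay within the wild-type CPM range. Pgam1 ran from 25.8 to 31.1 CPM and Gapdh from 1.20 to 1.76 CPM over all 4 libraries, and the groups overlapped in all 3 genes.

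Pyruvate dehydrogenase turns pyruvate into acetyl-CoA, and its kinases switch it off. Pdha1, the X-linked alpha subunit gene (chromosome X, 156560141 to 156576345, minus strand), had 110 and 112 CPM in wild type and 140 and 131 CPM in mutant testes, above in both (0.29 ± 0.08, adjusted p = 0.0822). Pdhb, the beta subunit gene, had 1290 and 990 counts in wild type and 989 and 1323 in mutant testes, which is 96.9 CPM in the lower wild-type library and 90.0 and 84.5 CPM in mutant testes (-0.15 ± 0.09, adjusted p = 0.308). Pdk1, a kinase gene known as a target of the hypoxia response, was at 100.4 and 127 CPM in wild type and 88.6 and 85.6 CPM in mutant testes (-0.38 ± 0.12, adjusted p = 0.0946). Pdk3, an X-linked kinase gene, was at 74.4 and 82.2 CPM in wild type and 64.2 and 60.5 CPM in mutant testes (-0.33 ± 0.10, adjusted p = 0.0861). Both kinase genes lay below wild type in both mutant libraries and neither passed, and in no leave-one-out fit was Pdha1, Pdk1 or Pdk3 called.

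**Figure D4:**
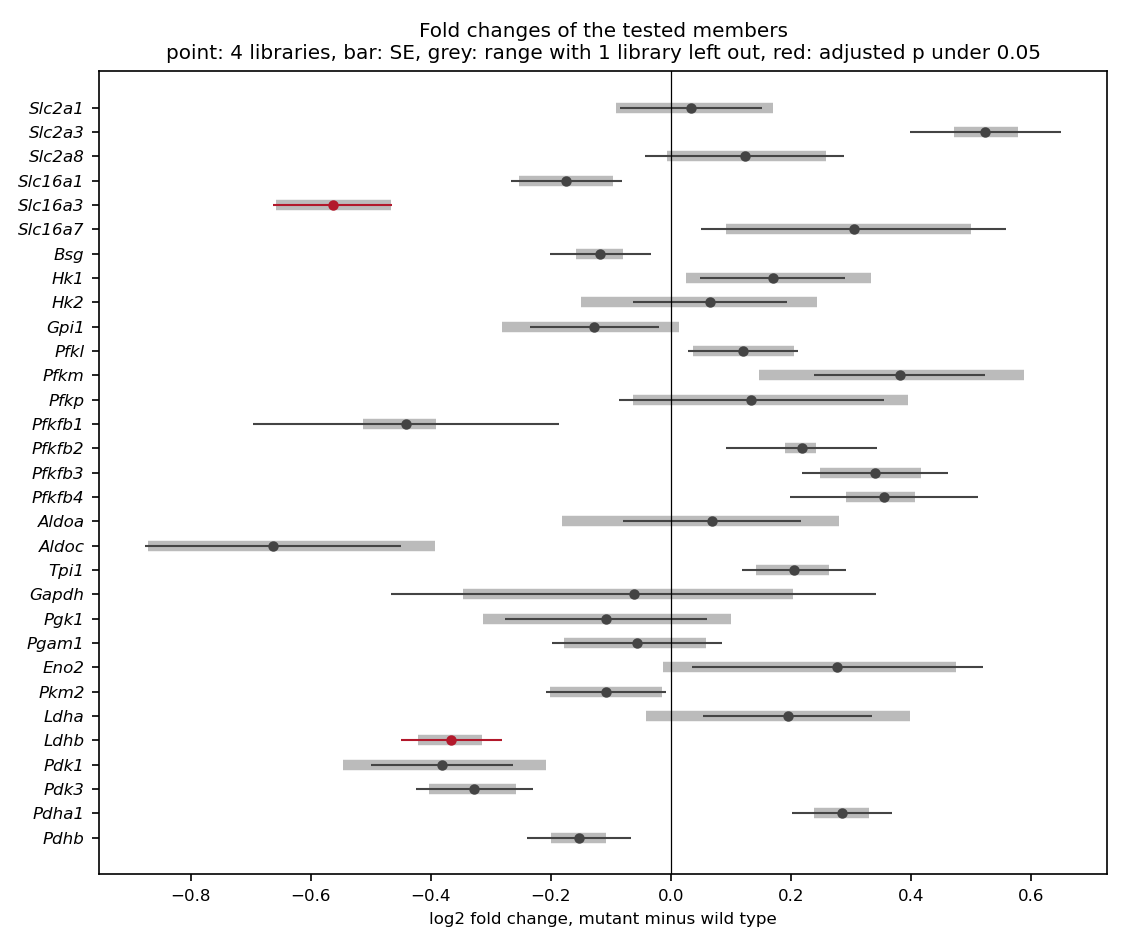
Log2 fold change (mutant minus wild type) of the 31 tested members with its SE, and in grey the range when each library is left out in turn. Slc16a3 at -0.56 and Ldhb at -0.37 passed an adjusted p of 0.05, and the grey ranges of Aldoa, Ldha and Hk2 cross 0.

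The other genes of carbohydrate metabolism were taken from a wider list of glucose and monocarboxylate transport, gluconeogenesis, glycogen, the pentose phosphate pathway and pyruvate entry. Of 69 genes found 59 were tested, and 3 rose, 2 fell and 54 did not pass. Their median log2 fold change was 0.05. Over all tested genes 3.15% were called higher and 2.52% lower, so the counts of this list rest on few genes. The 3 that rose are muscle forms. Eno3, the muscle enolase gene, was at 13.9 and 13.1 CPM in wild type with 120 CPM in mutant replicate 1 and 43.5 CPM in mutant replicate 2 (log2 fold change 2.58 ± 0.43, adjusted p = 0.0209). Pgam2, the muscle phosphoglycerate mutase gene, was at 2.48 and 2.06 CPM in wild type and 46.0 and 10.5 CPM in mutant testes (3.57 ± 0.75, adjusted p = 0.0365). Pygm, the muscle glycogen phosphorylase gene, was at 26.9 and 28.4 CPM in wild type and 59.4 and 40.6 CPM in mutant testes (0.85 ± 0.18, adjusted p = 0.0365). In all 3 genes mutant replicate 1 stood above mutant replicate 2, the order of the summed muscle markers, 2801 and 747 CPM. Without mutant replicate 1 the log2 fold changes were 1.68 for Eno3, 2.19 for Pgam2 and 0.56 for Pygm, and the call of Pygm was lost. Without either wild-type library none of the 3 was called.

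Among the members, Aldoa, Ldha and Pfkm stood highest in mutant replicate 1 relative to mutant replicate 2, with log2 ratios of 0.46, 0.44 and 0.44, and were the 3 of 31 with a ratio above 0.4, a limit chosen after the values were seen. All 3 are also abundant in skeletal muscle. Eno2 was the 1 member below -0.4, at -0.49. Hk2, at -0.39, ran the same way as Eno2 and lay just inside that limit. The ratio was 0.09 for Slc16a3 and -0.10 for Ldhb. The part of muscle RNA in these values was not tested.

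**Figure D5:**
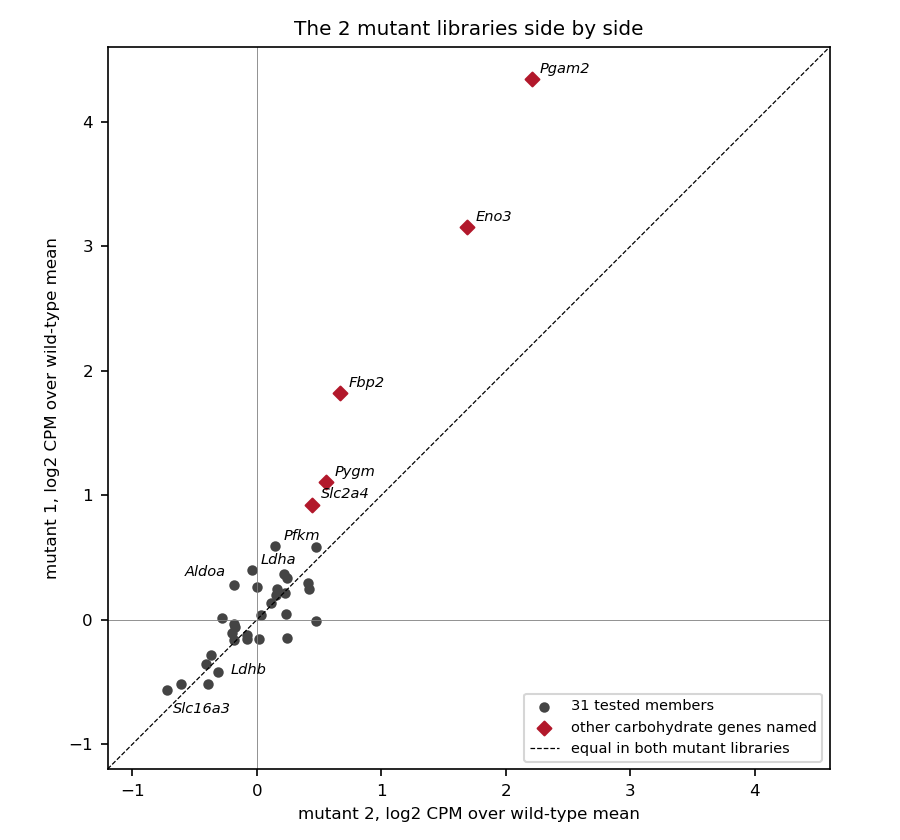
Log2 CPM over the wild-type mean in mutant replicate 2 (x) and mutant replicate 1 (y) for the 31 tested members (dots). Diamonds are Eno3, Pgam2, Pygm, Fbp2 and Slc2a4, 5 of the other carbohydrate genes named in the text. All 5 lie above the dashed line, where both libraries are equal. Of the named genes not drawn, Pdk4 and Pdha2 would lie above that line and Brp44, Brp44l and Gapdhs below it. Eno3 and Pgam2 lie far above the line, Pfkm, Ldha and Aldoa lie above it by 0.44 to 0.46, and Slc16a3 and Ldhb lie near it.

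The 2 genes that fell act on pyruvate. Brp44, now called Mpc2, encodes a subunit of the mitochondrial pyruvate carrier and had 106 and 93.2 CPM in wild type and 56.1 and 73.9 CPM in mutant testes, a 1.53-fold fall (adjusted p = 0.0430). Its log2 fold change of -0.62 ± 0.14 became -0.44 without mutant replicate 1, and the call held only without mutant replicate 2 among the leave-one-out fits. Brp44l (Mpc1), the partner subunit, was at 3.00 to 4.02 CPM in wild type and 3.64 to 4.40 CPM in mutant testes, with 72.9% of its windows copied elsewhere. Pdha2, the retrogene copy of Pdha1 used by meiotic germ cells, had 81 and 31 counts in wild type and 17 and 12 counts in mutant testes, a log2 fold change of -2.10 ± 0.49 (adjusted p = 0.0468). That call held without mutant replicate 1 (-2.60) and was lost on leaving out each of the other libraries, at -1.47 without wild-type replicate 1, -2.47 without wild-type replicate 2 and -1.60 without mutant replicate 2. Germ cell markers were lower in the same libraries, and their part was not tested.

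Among genes of the wider list that did not pass, Slc2a4, the insulin-regulated transporter of muscle and fat, was at 11.7 and 13.3 CPM in wild type and 23.8 and 17.0 CPM in mutant testes (0.69 ± 0.21, adjusted p = 0.0837). It passed without mutant replicate 2 at 0.93. Pdk4, the kinase of fasting and muscle, was at 6.76 to 8.11 CPM in wild type and 10.3 to 14.6 CPM in mutant testes (0.71 ± 0.24, adjusted p = 0.116). The sperm-specific Gapdhs was at 2.18 to 2.65 CPM in wild type and 3.00 to 4.21 CPM in mutant testes (adjusted p = 0.275), and Pgk2, the retrogene of meiotic and later germ cells, had 0 to 4 counts per library and was not tested. Fbp2, the muscle fructose bisphosphatase gene, chosen after its values were seen, was at 1.73 and 1.57 CPM in wild type and 5.82 and 2.62 CPM in mutant testes (adjusted p = 0.141).

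How firmly a lack of change can be stated differs by gene. The SE of the log2 fold change had a median of 0.13 over the tested members and ran from 0.08 to 0.40, the largest being that of Gapdh. In 20 members the sign was the same in all 4 leave-one-out fits and in 11 it was not.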

How the data were processed

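RNA from whole testes was sequenced as single-end reads of 100 bases, per the labels' protocols. The tools named, per the submitters' processing notes, are TopHat 1.4.0, CASAVA 1.8.1, DESeq2 and HTSeq, with build mm9 and no roles. Annotation, strand setting and counting mode: not given in the sources used here. The authors' deposited gene values, made from aligned reads per the file's own summary lines, were given the unit estimated counts, since those lines hold percentages. The authors' gene values are whole numbers that sum to the table's own total, so rounding changed nothing. Reads in no gene (13.8% to 17.3% of counted reads) or ambiguous (0.602% to 0.726%) were left out. Alignments that were not unique numbered 47.9 to 53.0 per 100 gene counts.

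Counts were tested with edgeR 4.0.16 in R 4.3.3 (quasi-likelihood F test, legacy and robust options off, genotype alone, TMM scaling, filterByExpr at its defaults, count 10 and total 15), which kept 14788 genes, and tested on simulated data first. CPM used TMM-scaled library sizes. Tests were two-sided. Exon lengths, positions and transcripts are from GENCODE M1 on NCBIM37 (mm9). Each gene's coding transcript was cut into windows of 100 bases and searched for ungapped copies outside the gene, on both strands. Promoters are from RefSeq (GRCm38.p6). Of 71 other carbohydrate symbols, 69 occur in the table. All members are named; per-library values go to those with an unadjusted p below 0.05 or called in any leave-one-out fit, to the main gene of each step, to called genes of the wider list, and to 6 of its genes always given. The members and lists were chosen with earlier results of these data known.

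Alternatives were DESeq2 1.42.0, limma 3.58.1 (voom), median-ratio and library-size scaling, no filter, a minimum count of 50, the legacy fit, the replicate number as a block, Acta1 (log2 CPM, prior count 2) as a covariate and each library left out.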

Additional observations from a re-analysis of the deposited data

How the results depend on the processing

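The 2 calls among the members depended on the setting, and so did the calls over all tested genes. With the main test 466 genes were higher and 373 lower, against 309 and 272 by limma voom. With no filter these were 282 and 218, and with Acta1 as a covariate 59 and 55. Calls over all genes also changed in number with the library left out. Both member calls stood under DESeq2, the other scalings, the minimum count of 50, the legacy fit and the replicate block. Members called lower numbered 1 by limma voom and 1 with no filter, where Ldhb missed the threshold (adjusted p = 0.0533 and 0.0665), 0 with Acta1 as a covariate, and 0 to 1 with each library left out. Members called higher numbered 1 with the minimum count of 50 and 1 with the legacy fit (Slc2a3 in both), and 0 to 1 with each library left out. Of the other carbohydrate genes, those called higher numbered 0 by limma voom, 1 with no filter, 0 with Acta1 and 0 to 7 with a library left out. Those called lower numbered 0 by limma voom, 0 with no filter, 1 with the minimum count of 50, 1 with the legacy fit, 1 with the replicate block and 0 to 2 with a library left out.

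Acta1 separates the groups, and with it as a covariate Slc16a3 was at -0.92, its SE rose from 0.10 to 0.79 and no member was called. Eno3 (-4.27) and Pgam2 (-6.52) turned sign there and were the 2 other carbohydrate genes called lower. With it, signs turned in Slc2a8 (-1.05), Slc16a7 (-0.48), Bsg (0.24), Pfkm (-1.69), Pfkfb1 (0.079), Aldoa (-2.12), Tpi1 (-0.22), Pgam1 (0.66), Ldha (-1.89), Ldhb (0.087) and Pdha1 (-0.15). With a library left out, members that were not called changed sign within these ranges: Slc2a1 -0.091 to 0.17, Slc2a8 -0.0069 to 0.26, Hk2 -0.15 to 0.24, Gpi1 -0.28 to 0.014, Pfkp -0.0625 to 0.40, Aldoa -0.18 to 0.28, Gapdh -0.35 to 0.20, Pgk1 -0.31 to 0.10, Pgam1 -0.18 to 0.059, Eno2 -0.014 to 0.48 and Ldha -0.041 to 0.40. The cause was not tested.

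Same-numbered libraries did not deviate together (r = -0.03 across genes). With 2 libraries per group this value cannot tell whether the labels' numbers pair libraries. Under the block Slc16a3 was at -0.56 and Ldhb at -0.37. The Slc2a3 share rose by 5.10 points per exon length, 7.79 without length scaling and 6.68 per window without a copy, the last a scaling chosen after seeing the data, under which the share of Eno2 of Eno1 and Eno2 differed by 18.2 points, on 3 to 8 Eno1 counts per library. Low unique counts of Gapdh, Eno1, Pgk1 and Pgam1 limit what depth can show there.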
